A study of Homo sapiens with 12 samples.

Results

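S100 proteins and annexins were followed in rhabdomyosarcoma (RMS) cells with and without depletion of KDM3A, a histone demethylase. The set holds 10 genes, the S100 genes S100A4, S100A6, S100A10, S100A11, S100A13 and S100A16 and the annexin genes ANXA1, ANXA2, ANXA5 and ANXA6, out of 65975 gene identifiers in the expression table. Members were found by gene symbol. S100A10 was picked because its change with the knockdown differed between the cell lines, so its values are given as a description with no test. The other 9 genes were tested, although the set was chosen with earlier results of these data known. All 10 members passed the filter (an average of 1 FPKM or more) in every comparison.

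RNA-seq was done on 12 libraries that fall into 4 groups of 3. The line RD stands for fusion-negative RMS (FN-RMS) and the line Rh30 for fusion-positive RMS (FP-RMS). Cells of each were transduced with lentivirus carrying either the non-targeting Scrambled shRNA (Scramble) or an shRNA against KDM3A (KDM3A-sh2) and selected with puromycin, so the control cells carry the virus and the selection too. Each subtype is represented by a single line and the knockdown by a single shRNA. RD was grown in DMEM and Rh30 in RPMI, so line, subtype and medium cannot be told apart. Values are FPKM, numbers of fragments scaled to the length of the gene and to the size of the library, so that levels of different genes can be compared. The column names of the 3 Rh30 Scramble libraries end in the same number, unlike those of the other groups, and its meaning is not stated. Separate cultures for the 3 libraries of a group are not stated in the labels or methods. P-values hence measure only the spread among these libraries, which may be technical.

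S100 proteins are small proteins with paired EF-hand motifs, and most of them are calcium sensors. Most form dimers, bind calcium, and then dock onto target proteins, though calcium is not needed for every member. Their targets include cytoskeletal proteins and annexins, and several S100 proteins are also released from cells. Annexins bind membranes rich in acidic phospholipids when calcium rises, which places them at sites of exocytosis, endocytosis and repair of torn membranes. Some pairs are well known: S100A10 binds ANXA2, and S100A11 binds ANXA1. In muscle, annexins act with dysferlin in resealing the sarcolemma.

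The targeted gene was lower in each knockdown library. KDM3A was at 35.8, 33.9 and 30.9 FPKM in RD Scramble and 12.0, 11.2 and 13.4 FPKM in RD KDM3A-sh2, a log2 change of -1.39 (SE 0.083, limma adjusted p = 5.0e-05). The Rh30 libraries had 27.8, 29.2 and 32.0 FPKM with Scramble and 13.7, 13.2 and 15.4 FPKM with KDM3A-sh2, a log2 change of -1.02 (SE 0.079, adjusted p = 0.000348). The table holds no read counts. Relative depth, read from the step between the lowest values of a library, ran from 1.04 to 1.20 in RD Scramble, 0.862 to 0.998 in RD KDM3A-sh2, 1.00 to 1.03 in Rh30 Scramble and 0.946 to 0.996 in Rh30 KDM3A-sh2. It was thus lower in every knockdown library than in every control library of its line, and its part in the results was not tested. The muscle regulators MYOD1 and MYOG were present in both lines, with Scramble means of 133.8 and 184.4 FPKM in RD and 769.7 and 690.6 FPKM in Rh30, while MYF5 was at or near 0 in every library. Markers of other cell types (PTPRC, CD3E, LYZ, PECAM1, CDH5, EPCAM, KRT5 and ALB) summed to 0.827 to 1.43 FPKM in RD and 5.82 to 8.13 FPKM in Rh30, most of the latter from EPCAM. Of these 8 markers, 7 had a mean under 1 FPKM in every group.

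ANXA2 has processed pseudogene copies of nearly the same sequence. The coding sequence of ANXA2 used here is the longest in GENCODE 29 (transcript ENST00000332680.8, 1071 bases). Positions are counted in it and differ in shorter coding sequences of the gene. Over 1017 aligned bases it and the ANXA2P2 locus (chr9:33624274-33625293, plus strand, GRCh38) differ at 16 bases, an identity of 98.4%, and the longest identical stretch is 221 bases. The 30 bases at positions 130 to 159 of the ANXA2 coding sequence, counted from 1 at the A of the start codon, hold 1 of those differences, T144C, which the capitals mark:
ANXA2: tctgtcaaagcctaTactaactttgatgct
ANXA2P2: tctgtcaaagcctaCactaactttgatgct
Of the 50-base words of the ANXA2 transcripts, 15% also occur in ANXA2P2, ANXA2P1 or ANXA2P3. For S100A13 the share was 42.4%, all in the overlapping processed transcript AL162258.1 on the same strand, and for S100A11 it was 2.2%. The other 7 members share no 50-base word with another gene. S100A6 overlaps an antisense transcript, BX470102.1, on the opposite strand. How the authors' counting split reads between such genes is not given in the sources used here, so the values of ANXA2 and S100A13 are uncertain in that respect.

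The 10 members were abundant transcripts in RD and, with the exception of S100A4, in Rh30. Together they made up 0.613% ± 0.0079 (SD, n = 3) of the summed FPKM in RD Scramble and 0.856% ± 0.011 in RD KDM3A-sh2, against 0.276% ± 0.0054 in Rh30 Scramble and 0.258% ± 0.0021 in Rh30 KDM3A-sh2. Summed FPKM of a library ran from 1198300 to 1379200. The 6 S100 genes summed to 5484 ± 90.6 FPKM in RD Scramble and 7213 ± 37.9 FPKM in RD KDM3A-sh2, and to 1869 ± 14.9 and 1681 ± 55.5 FPKM in the same groups of Rh30. The 4 annexins summed to 2117 ± 38.4 and 3153 ± 87.8 FPKM in RD, and to 1818 ± 59.5 and 1831 ± 27.2 FPKM in Rh30. The S100 sum thus separated the lines more widely than the annexin sum did. In these bulk samples fewer cells with a transcript and less of it per cell cannot be told apart.

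In RD Scramble the order of mean FPKM was S100A11, S100A6, S100A13, ANXA5, S100A10, S100A16, ANXA2, ANXA1, ANXA6 and S100A4, and no neighbours in that order overlapped in their libraries. With KDM3A-sh2 S100A11 stayed at the top, S100A6 overlapped ANXA5, and ANXA1, S100A4, ANXA2 and S100A16 formed a run in which each overlapped the next. In Rh30 the order was S100A11, ANXA5, ANXA6, ANXA2, S100A13, S100A6, S100A10, S100A16, ANXA1 and S100A4 in both groups, with no overlap of neighbours. Annexins thus held places 2 to 4 in Rh30, where S100A6, S100A13 and ANXA5 stood in RD Scramble.

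**Figure D1:**
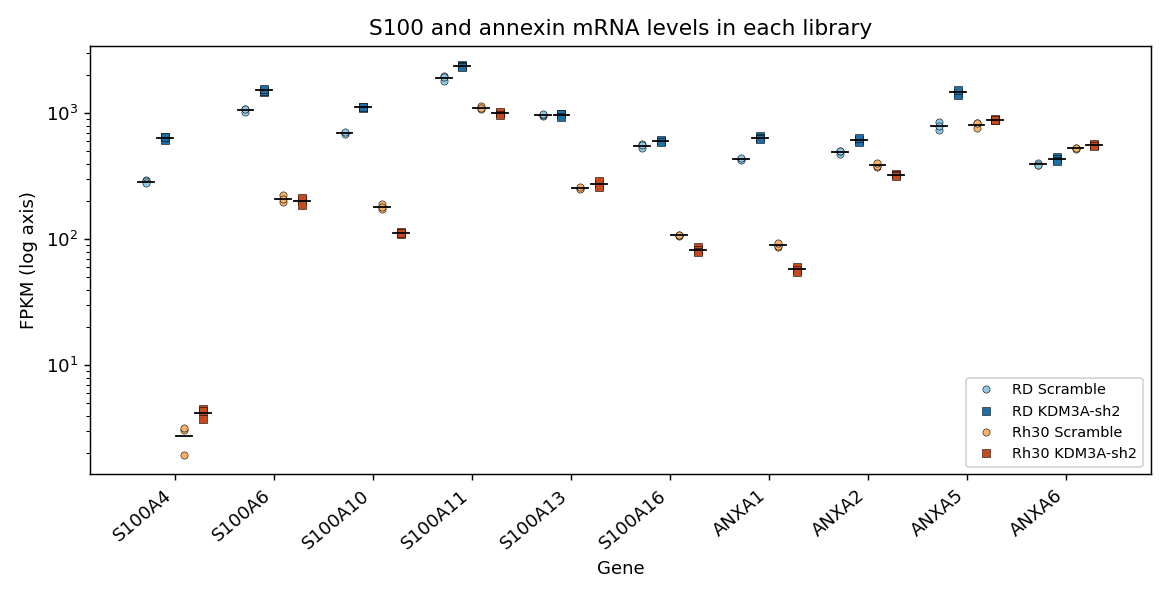
FPKM of the 10 members in each of the 12 libraries on a log axis (points, 3 libraries a group; black bars, group means). S100A11 is highest in every group, and S100A4 lies between 280.8 and 651.9 FPKM in RD but between 1.96 and 4.48 FPKM in Rh30.

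Both lines were compared with their own Scramble control to see how the members responded to KDM3A depletion. In RD, 8 of the 9 tested members rose, none fell and S100A13 did not pass the test; 41.1% of the 17988 genes tested were called, 21.6% as higher and 19.5% as lower. The members' median log2 change was 0.32, beside 0.0067 over all genes tested. In Rh30, none of the 9 rose, 4 fell (S100A11, S100A16, ANXA1 and ANXA2) and 5 were not called; 28.5% of 17803 genes were called, 15.3% as higher and 13.2% as lower. The members' median log2 change in Rh30 was -0.06, beside 0.03 over all genes. A larger share of genes was called with a filter of 10 FPKM in 1 library. It gave 6202 of 11666 genes in RD and 4261 of 11426 in Rh30. Libraries of the groups did not overlap for 8 of the 9 in RD (53.4% of all genes) and for 8 of the 9 in Rh30 (45.8% of all genes). The RD changes of S100A16 and ANXA6 and the Rh30 change of S100A11 were the smallest calls and each was lost in at least 6 of 16 alternative settings.

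**Figure D2:**
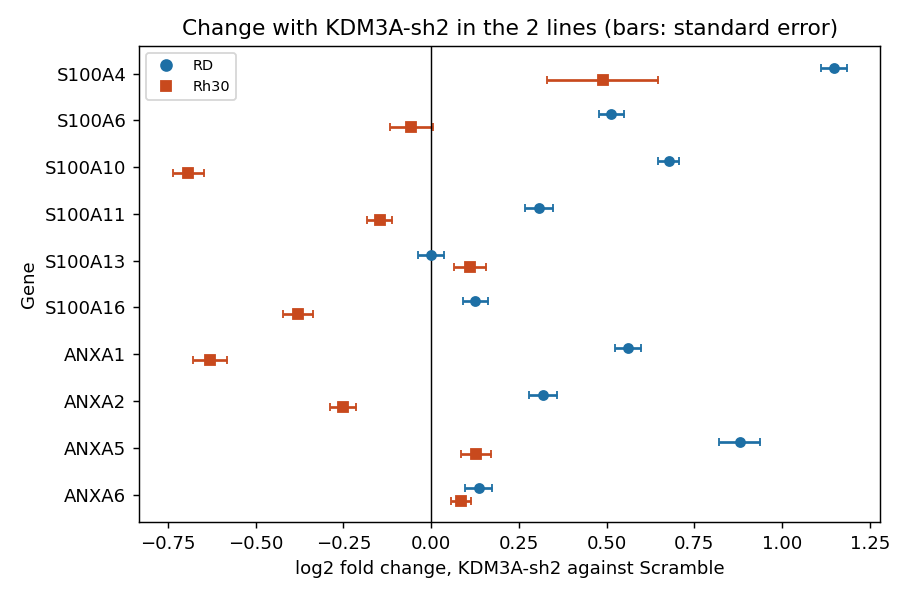
Log2 change of each member with KDM3A-sh2 in RD (circles) and Rh30 (squares), with standard errors as bars. All RD points but that of S100A13 lie to the right of 0, and the Rh30 points run from -0.69 for S100A10 to 0.49 for S100A4.

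S100A4 showed the largest rise of the members in RD. It is a metastasis-associated S100 protein that binds non-muscle myosin, and lies on the minus strand of chromosome 1 (ENSG00000196154, chr1:153543613-153550136, GRCh38). Its levels were 294.3, 288.0 and 280.8 FPKM in RD Scramble and 651.9, 614.5 and 650.0 FPKM in RD KDM3A-sh2. Every knockdown library was above every control library, at 2.22 times the control mean (log2 change 1.15, SE 0.036, limma adjusted p = 1.18e-05). In Rh30 the gene was barely present, at 3.10, 3.16 and 1.96 FPKM in Scramble and 4.48, 4.36 and 3.74 FPKM in KDM3A-sh2. These groups did not overlap either, but the log2 change of 0.49 (SE 0.16) did not pass the test (adjusted p = 0.060). The fit of all 12 libraries called it (adjusted p = 0.00675, range over 15 alternatives 0.00675 to 0.155). With a pseudocount of 1 the change of so low a gene is understated, and the ratio of its Rh30 means was 1.53.

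S100A6, also called calcyclin, is a cell-cycle-linked S100 protein that binds CACYBP and several annexins (ENSG00000197956, chr1:153534599-153536244, minus strand). It was at 1087, 1023 and 1081 FPKM in RD Scramble and 1485, 1512 and 1560.4 FPKM in RD KDM3A-sh2, with no overlap. The log2 change was 0.51 (SE 0.036, limma adjusted p = 9.03e-05). Its Rh30 values were 223.2, 197.3 and 210.7 FPKM with Scramble and 206.3, 212.2 and 188.5 FPKM with KDM3A-sh2, and here the groups overlapped (log2 change -0.06, SE 0.062, adjusted p = 0.539). S100A6 was thus the only tested member whose groups overlapped in Rh30, as S100A13 was in RD.

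S100A10 and ANXA2 encode the subunits of the annexin A2 heterotetramer, in which an S100A10 dimer joins a pair of ANXA2 chains at the membrane and takes part in plasminogen activation at the cell surface. S100A10 (ENSG00000197747, chr1:151982915-151994390, minus strand) was at 704.4, 679.9 and 710.3 FPKM in RD Scramble and 1121, 1104 and 1125 FPKM in RD KDM3A-sh2. The Rh30 levels were 190.7, 173.8 and 179.9 FPKM with Scramble and 109.5, 114.7 and 111.6 FPKM with KDM3A-sh2. The knockdown libraries of RD were all above, and those of Rh30 all below, their controls. The log2 change was 0.68 (SE 0.029) in RD and -0.69 (SE 0.044) in Rh30, which is the contrast the gene was picked on.

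ANXA2 (ENSG00000182718, chr15:60347134-60402883, minus strand) was at 473.4, 499.1 and 503.4 FPKM in RD Scramble and 615.4, 590.3 and 636.4 FPKM in RD KDM3A-sh2. The groups did not overlap, with a log2 change of 0.32 (SE 0.040, limma adjusted p = 0.00102). Rh30 Scramble had 378.4, 379.0 and 402.6 FPKM and Rh30 KDM3A-sh2 331.5, 323.6 and 319.1 FPKM, again with no overlap and in the other direction (log2 change -0.25, SE 0.037, adjusted p = 0.00377). ANXA2 moved less than S100A10 in each line. The ratio of S100A10 to ANXA2 was 1.42 ± 0.063 (SD, n = 3) in RD Scramble and 1.82 ± 0.051 in RD KDM3A-sh2. The Rh30 ratios were 0.470 ± 0.030 and 0.345 ± 0.013. The ratio to ANXA2 alone therefore exceeded 1 in all 6 RD libraries and stayed under 0.51 in all 6 Rh30 libraries. With the pseudogene ANXA2P2 added to ANXA2, RD Scramble had a mean of 820.0 FPKM beside 698.2 FPKM of S100A10. The RD KDM3A-sh2 means were 1023 FPKM and 1116 FPKM. FPKM are scaled to the length of each gene, so this sum is not the level ANXA2 would have with the copy's reads. Whether S100A10 exceeds ANXA2 in RD Scramble may depend on how reads were split between ANXA2 and its copy, which was not tested.

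The near-identical copy ANXA2P2, printed above beside ANXA2, followed the parent gene. It was at 328.0 ± 5.74 FPKM (SD, n = 3) in RD Scramble and 409.1 ± 4.97 FPKM in RD KDM3A-sh2 (log2 change 0.32, limma adjusted p = 0.00025), and at 251.0 ± 10.4 and 211.0 ± 6.00 FPKM in Rh30 (log2 change -0.25, adjusted p = 0.00656). The ratio of ANXA2P2 to ANXA2 lay between 0.634 and 0.700 in all 12 libraries, and how far the copy's values come from reads of the parent was not tested. The FPKM of both summed to 820.0 ± 14.9 and 1023 ± 27.8 in RD and to 637.7 ± 23.2 and 535.7 ± 11.0 in Rh30. Of the 5 member pseudogenes at 1 FPKM or more, 1 was called in RD (41.1% of all genes) and 2 in Rh30 (28.5% of all genes). The second in Rh30 was ANXA2P1 (log2 change -0.29, limma adjusted p = 0.0349), whose call was lost in 10 of 16 alternatives (adjusted p 0.0254 to 0.102). Among these were the fits without Rh30 Scramble 1 (0.102), Rh30 Scramble 3 (0.0833), Rh30 KDM3A-sh2 1 (0.0692), Rh30 KDM3A-sh2 2 (0.0886) and Rh30 KDM3A-sh2 3 (0.0956). ANXA2P3, S100A11P1 and S100A11P2 were not called in either line.

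**Figure D3:**
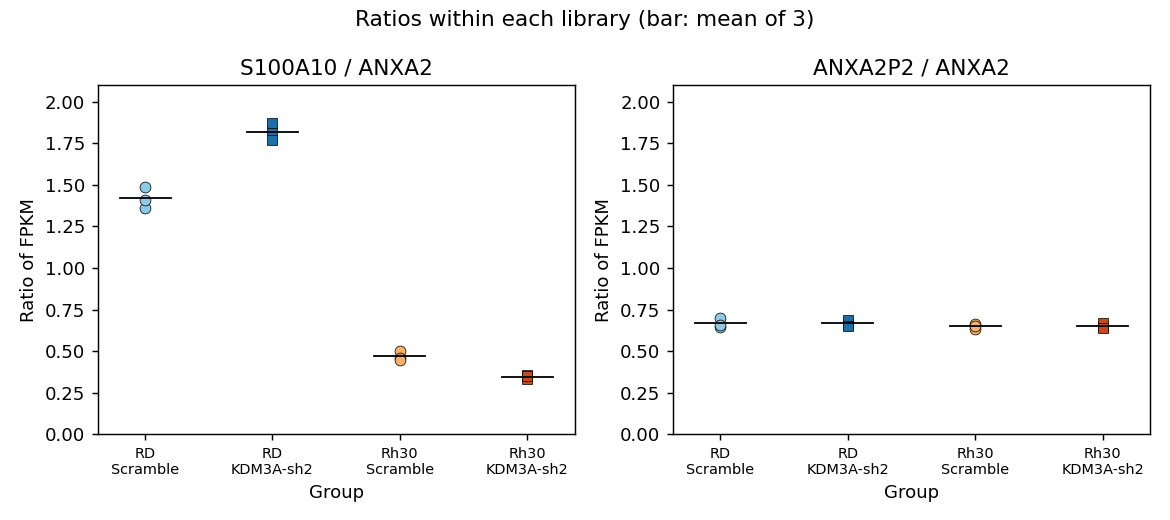
Ratios of FPKM within each library (points) and their means over 3 libraries (bars), for S100A10 over ANXA2 and ANXA2P2 over ANXA2. The S100A10 ratio spans 1.36 to 1.87 in RD and 0.330 to 0.504 in Rh30, while the pseudogene ratio stays between 0.634 and 0.700.

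S100A11 and its partner ANXA1 changed in opposite directions in the lines. S100A11 (ENSG00000163191, chr1:152032506-152047907, minus strand), also known as calgizzarin, was at 1812, 1982 and 1936 FPKM in RD Scramble and 2402, 2375 and 2313 FPKM in RD KDM3A-sh2. The knockdown libraries were all higher (log2 change 0.31, SE 0.040, limma adjusted p = 0.00115). The Rh30 values were 1083, 1151 and 1099 FPKM in Scramble and 1007, 1027 and 976.8 FPKM in KDM3A-sh2, all lower than the controls (log2 change -0.15, SE 0.035, adjusted p = 0.0237). That call was lost in 6 of 16 alternatives (adjusted p over all of them 0.00526 to 0.0792), with adjusted p = 0.0584 without Rh30 Scramble 2, 0.0747 without Rh30 KDM3A-sh2 1 and 0.0635 without Rh30 KDM3A-sh2 3.

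ANXA1, annexin A1 or lipocortin, is a calcium-dependent membrane binder with anti-inflammatory activity and lies on chromosome 9 (ENSG00000135046, chr9:73151757-73170393, plus strand). Its levels were 430.6, 426.7 and 445.7 FPKM in RD Scramble and 666.4, 632.0 and 626.1 FPKM in RD KDM3A-sh2. This was a rise to 1.48 times the control mean with no overlap (log2 change 0.56, SE 0.036, limma adjusted p = 6.6e-05). Rh30 Scramble had 87.5, 89.1 and 93.0 FPKM and Rh30 KDM3A-sh2 60.6, 57.5 and 55.0 FPKM, a fall with no overlap (log2 change -0.63, SE 0.049, adjusted p = 0.000348). ANXA1 was the tested member that fell furthest in Rh30. The ratio of S100A11 to ANXA1 was 4.40 ± 0.22 and 3.69 ± 0.078 (SD, n = 3) in RD Scramble and KDM3A-sh2, and 12.4 ± 0.55 and 17.4 ± 0.69 in Rh30.

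S100A16 is a widely expressed S100 protein, and its gene lies close to that of S100A13 on chromosome 1. S100A16 (ENSG00000188643, chr1:153606886-153613145, minus strand) was at 531.8, 571.3 and 557.8 FPKM in RD Scramble and 599.5, 615.3 and 597.9 FPKM in RD KDM3A-sh2, a small rise (log2 change 0.13, SE 0.035, limma adjusted p = 0.0269). The call was lost in 8 of 16 alternatives (adjusted p 0.00529 to 0.0901), among them the fits without RD Scramble 1 (0.0591), RD Scramble 3 (0.0616), RD KDM3A-sh2 1 (0.0611) and RD KDM3A-sh2 2 (0.0901). In Rh30 it fell from 106.8, 108.5 and 108.7 FPKM to 87.2, 81.7 and 79.8 FPKM (log2 change -0.38, SE 0.043, adjusted p = 0.00146). The Rh30 call held in all 16 alternatives.

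S100A13, which takes part in the release of FGF1 from stressed cells, was the member that moved least in RD (ENSG00000189171, chr1:153618787-153631360, minus strand). It was at 953.1, 965.9 and 991.7 FPKM in RD Scramble and 992.2, 992.9 and 928.5 FPKM in RD KDM3A-sh2, with overlapping groups (log2 change 0.00096, SE 0.037, limma adjusted p = 0.986). The same gene in Rh30 was at 253.9, 252.3 and 260.1 FPKM with Scramble and at 277.0, 290.7 and 260.6 FPKM with KDM3A-sh2 (log2 change 0.11, SE 0.045, adjusted p = 0.113). Without Rh30 KDM3A-sh2 3 the Rh30 difference was called (log2 change 0.15, adjusted p = 0.0441, range over 16 alternatives 0.0441 to 0.280). The sign of its RD value turned in 5 of the 16 alternatives, at -0.0022 to -0.0153.

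ANXA5 and ANXA6 both bind phosphatidylserine and have roles in membrane repair. ANXA5 (ENSG00000164111, chr4:121667955-121697113, minus strand) was at 847.2, 743.2 and 796.7 FPKM in RD Scramble and 1446, 1399 and 1546 FPKM in RD KDM3A-sh2, which was 1.84 times the control mean with no overlap (log2 change 0.88, SE 0.058, limma adjusted p = 7.41e-05). In Rh30 it was at 834.7, 767.1 and 842.8 FPKM in Scramble and 891.3, 898.2 and 879.4 FPKM in KDM3A-sh2. Those groups did not overlap, but the log2 change of 0.13 (SE 0.042) missed the threshold (adjusted p = 0.061, range over 16 alternatives 0.0494 to 0.15). ANXA5 was the annexin with the largest rise in RD among the 4.

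ANXA6, the largest annexin, built from a doubled core (ENSG00000197043, chr5:151100712-151157882, minus strand), was at 388.2, 403.3 and 392.4 FPKM in RD Scramble and 451.1, 433.9 and 416.2 FPKM in RD KDM3A-sh2. The groups did not overlap (log2 change 0.14, SE 0.038, limma adjusted p = 0.0274), but the call was lost in 9 of 16 alternatives (adjusted p 0.00609 to 0.0812), among them the fits without RD Scramble 1 (0.0747), RD Scramble 3 (0.0764), RD KDM3A-sh2 1 (0.0812) and RD KDM3A-sh2 2 (0.0749). Its levels in Rh30 were 527.4, 519.6 and 534.2 FPKM in Scramble and 563.2, 568.0 and 546.4 FPKM in KDM3A-sh2 (log2 change 0.09, SE 0.030, adjusted p = 0.0732). ANXA6 was thus above its control in every knockdown library of both lines by a small amount.

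Whether the members responded differently in FP-RMS Rh30 than in FN-RMS RD was tested as the difference of the log2 changes, Rh30 minus RD. Of the 9 tested members 7 had a lower change in Rh30 than in RD, none a higher one, and S100A13 and ANXA6 were not called; 27.8% of 18517 genes were called, 14.4% as higher and 13.4% as lower. The members' median difference was -0.57, beside 0.02 over all genes. With a filter of 10 FPKM in 1 library, 4565 of 12921 genes were called, a larger share. The set was chosen with earlier results of these data known, so these counts are not independent of that choice. When all libraries were set to a common sum, the share of higher calls among all calls moved from 51.7% to 40.7% (2094 higher and 3051 lower, against 2665 and 2486). ANXA1 had the lowest value, -1.19 (SE 0.059, limma adjusted p = 4.82e-07), followed by ANXA5 at -0.75 (SE 0.076, adjusted p = 4.63e-05) and S100A4 at -0.66 (SE 0.16, adjusted p = 0.0103).

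S100A6 and ANXA2 were both at -0.57 in the difference of changes (SE 0.075 and 0.054, limma adjusted p = 0.00027 and 3.02e-05), S100A16 was at -0.50 (SE 0.053, adjusted p = 6.22e-05) and S100A11 at -0.45 (SE 0.054, adjusted p = 0.000136). For S100A4, with a pseudocount of 0.1, the difference was -0.53 and no longer called (adjusted p = 0.0885, range over 21 alternatives 1.11e-06 to 0.0885). S100A13 was at 0.11 (SE 0.058, adjusted p = 0.196) and ANXA6 at -0.05 (SE 0.046, adjusted p = 0.458). S100A10, picked on this contrast, was at -1.37 (SE 0.050). S100A4, S100A6 and ANXA5 thus rose in RD with no called change in Rh30, while ANXA1, ANXA2, S100A11 and S100A16 were called in both lines with opposite signs. Both calls held in all 16 alternatives only for ANXA1 and ANXA2. The Rh30 call of S100A11 was lost in 6 of 16 and the RD call of S100A16 in 8 of 16.

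The lines already differed in most members with Scramble alone. Of the 9 tested members 7 were lower in Rh30 Scramble than in RD Scramble, ANXA6 was higher and ANXA5 was not called; 74.5% of 18357 genes were called, 35.0% as higher and 39.6% as lower in Rh30, and the groups did not overlap for 8 of 9 members against 77.5% of all genes. These comparisons use the same Scramble libraries as those of the knockdown. S100A4 was 105 times as high in RD as in Rh30 by the ratio of means (log2 difference -6.29, SE 0.13, limma adjusted p = 4.32e-08). S100A16, S100A6, ANXA1 and S100A13 were 5.13, 5.06, 4.83 and 3.80 times as high in RD, with adjusted p-values from 1.59e-08 to 5.32e-08. S100A11 was 1.72 times (adjusted p = 3.49e-06) and ANXA2 1.27 times (adjusted p = 0.000177) as high in RD. ANXA6 was 1.34 times as high in Rh30 (adjusted p = 1.36e-05), and ANXA5 differed by 0.04 on the log2 scale (adjusted p = 0.607). For S100A10 the ratio of RD to Rh30 was 3.85. All 5 tested S100 members were thus higher in RD, while the 4 annexins split.

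Other genes of the same families were mostly silent or low. Of 14 further S100 genes, 4 were tested in RD, where 2 rose and none fell (21.6% and 19.5% of all genes), and 2 in Rh30, where none rose and 1 fell (15.3% and 13.2%). S100A2 rose from a mean of 237.6 to 376.8 FPKM in RD (log2 change 0.66, limma adjusted p = 0.000267) and fell from 45.2 to 32.8 FPKM in Rh30 (log2 change -0.46, adjusted p = 0.00605). S100A3 rose from 16.4 to 26.7 FPKM in RD (log2 change 0.67, adjusted p = 0.00131) and was not called in Rh30 (0.13, adjusted p = 0.523). The inflammatory S100 genes S100A8, S100A9 and S100A12, as well as S100A7A, were listed at 0 in all libraries.

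Of 9 further annexins, 3 were tested in RD and all 3 rose (21.6% of all genes), and 4 were tested in Rh30, of which 1 rose (15.3% of all genes). ANXA4 rose from 16.4 to 39.4 FPKM in RD (log2 change 1.22, limma adjusted p = 0.000142) and had a log2 change of 0.41 in Rh30 (adjusted p = 0.0552, range over 15 alternatives 0.0163 to 0.158), which was called without Rh30 KDM3A-sh2 1 (adjusted p = 0.0497). ANXA11 rose from 177.2 to 255.4 FPKM in RD (log2 change 0.53, adjusted p = 0.0057) and was not called in Rh30 (-0.06, adjusted p = 0.270). ANXA7 rose in both lines, in RD from 129.0 to 175.6 FPKM (0.44, adjusted p = 0.000239) and in Rh30 from 85.2 to 98.0 FPKM (0.20, adjusted p = 0.00761). In the difference of changes, 2 of 4 S100 genes and 3 of 4 annexins of these lists were lower in Rh30, and none was higher. The shares over all genes were 13.4% lower and 14.4% higher.

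Genes of the plasminogen system, on which the S100A10 and ANXA2 tetramer acts, were called in both directions. In RD 3 of 7 rose and 2 fell, with a median log2 change of 0.40, where 41.1% of all genes were called and their median was 0.0067. In Rh30 2 rose and 2 fell, with a median of 0.0062, where 28.5% of all genes were called and their median was 0.03. PLAT, tissue plasminogen activator, rose from 212.5 to 369.5 FPKM in RD (log2 change 0.79, limma adjusted p = 2.47e-05) and fell from 69.9 to 39.1 FPKM in Rh30 (-0.82, adjusted p = 0.000206). CTSB, the protease cathepsin B, rose from 636.4 to 858.8 FPKM in RD (0.43, adjusted p = 0.000439) and was not called in Rh30 (0.09, adjusted p = 0.628). SERPINE2, a serine protease inhibitor, rose in both lines (0.59, adjusted p = 4.93e-05 in RD and 0.79, adjusted p = 7.22e-05 in Rh30). PLAU, urokinase, fell in both (-0.25, adjusted p = 0.00118 in RD and -0.90, adjusted p = 7.22e-05 in Rh30).

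Among 14 genes of plasma membrane repair, 8 rose and none fell in RD (median log2 change 0.19), beside 21.6% higher, 19.5% lower and a median of 0.0067 over all genes. In Rh30 4 rose and 1 fell (median 0.04), beside 15.3% higher, 13.2% lower and a median of 0.03. The gene that fell was DYSF, dysferlin, a sarcolemma repair protein that works with annexins. It went from a mean of 56.3 to 26.2 FPKM in Rh30 (log2 change -1.08, limma adjusted p = 0.000177) and rose from 95.7 to 127.6 FPKM in RD (0.41, adjusted p = 0.000439). Its relative MYOF rose from 207.7 to 285.5 FPKM in RD (0.46, adjusted p = 0.000123) and was not called in Rh30 (-0.15, adjusted p = 0.265). EHD2, a membrane-shaping ATPase found at caveolae, rose in both lines (0.85, adjusted p = 3.67e-05 and 0.34, adjusted p = 0.00357), as did CAPNS1, the small calpain subunit (0.27, adjusted p = 0.00253 and 0.33, adjusted p = 0.0037). In the difference of changes 7 of the 14 were lower in Rh30 and none was higher, beside 13.4% lower and 14.4% higher over all genes.

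Of 12 known binding partners of S100 proteins and annexins, 11 were tested in RD, where 4 rose and 2 fell (median 0.03), and 10 in Rh30, where none rose and 4 fell (median 0.02). Over all genes 41.1% were called in RD and 28.5% in Rh30. AGER, a receptor for extracellular S100 proteins, fell from 5.91 to 2.98 FPKM in RD (log2 change -0.78, limma adjusted p = 0.0132). DLC1, a tumour suppressor protein that binds S100A10, rose from 22.7 to 35.2 FPKM in RD (0.62, adjusted p = 0.00119), and in Rh30 it was at 0.906 and 2.33 FPKM (log2 change 0.75, adjusted p = 0.118). MYH9, the non-muscle myosin heavy chain bound by S100A4, fell from 201.6 to 133.3 FPKM in Rh30 (-0.59, adjusted p = 0.00484) and had a log2 change of -0.11 in RD (adjusted p = 0.186). SYT1, a calcium sensor of vesicle release, rose in RD (0.66, adjusted p = 0.000389) and was lower in Rh30 (-0.43, adjusted p = 0.0272). The Rh30 call of SYT1 was lost in 7 of 15 alternatives (adjusted p 0.00255 to 0.0805), with 0.0768 without Rh30 Scramble 2, 0.0689 without Rh30 Scramble 3, 0.0799 without Rh30 KDM3A-sh2 1 and 0.0805 without Rh30 KDM3A-sh2 2.

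**Figure D4:**
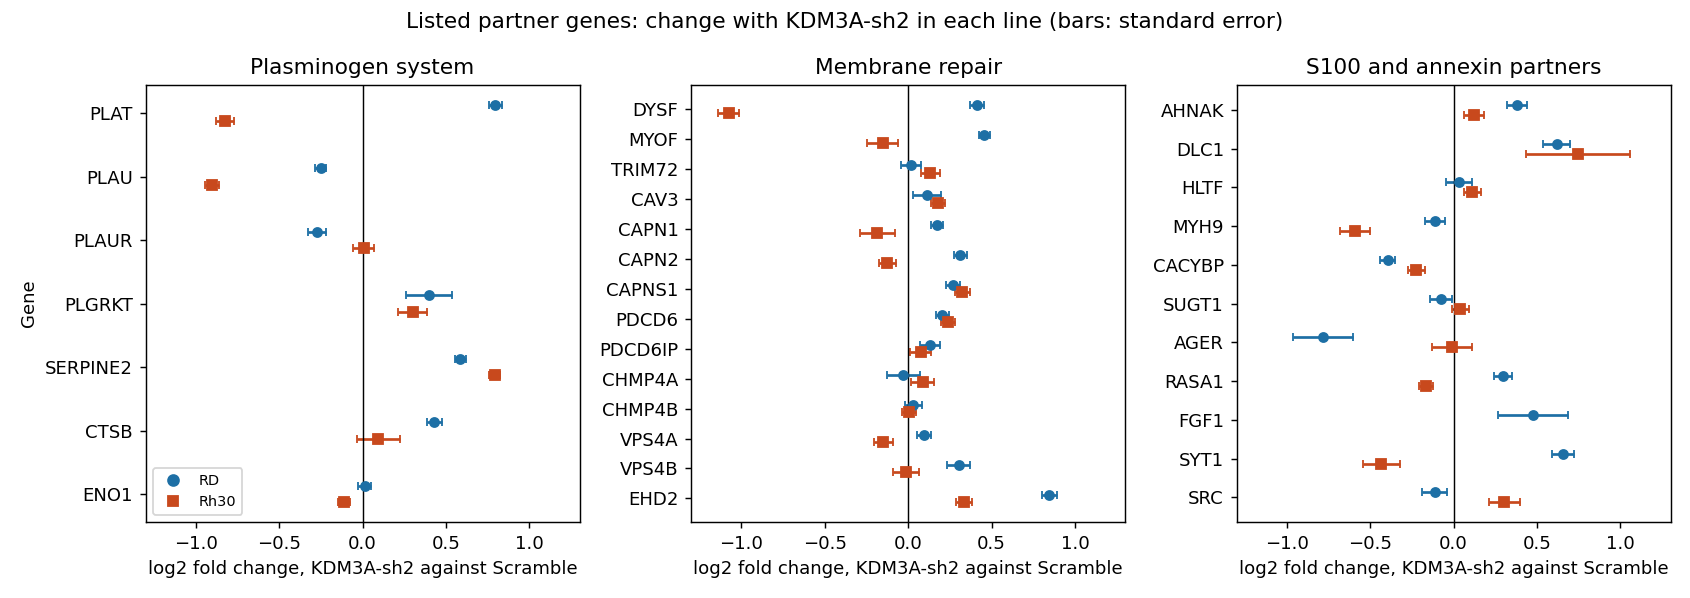
Log2 change with KDM3A-sh2 in RD (circles) and Rh30 (squares) for the tested genes of the plasminogen, membrane repair and partner lists, with standard errors as bars. PLAT and DYSF lie to the right of 0 in RD (0.79 and 0.41) and to the left in Rh30 (-0.82 and -1.08).

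Of 6 muscle lineage genes 5 were tested, of which 2 rose and 3 fell in RD and 3 rose and 1 fell in Rh30. Over all genes 21.6% were called higher and 19.5% lower in RD, and 15.3% higher and 13.2% lower in Rh30. MYOD1 fell by 0.24 on the log2 scale in RD (limma adjusted p = 0.00383) and rose by 0.28 in Rh30 (adjusted p = 0.0222), MYOG fell by 0.14 in RD (adjusted p = 0.049) and rose by 0.56 in Rh30 (adjusted p = 0.0004), and PAX3 fell by 0.91 in RD (adjusted p = 0.0013) and rose by 0.47 in Rh30 (adjusted p = 0.0118). CHRNA1, the muscle acetylcholine receptor subunit, rose in RD (log2 change 0.42, adjusted p = 0.000127) and fell in Rh30 (log2 change -0.64, adjusted p = 8.55e-05). DES, the muscle intermediate filament desmin, rose in RD (log2 change 0.23, adjusted p = 0.0437) and had a log2 change of -0.12 in Rh30 that was not called (adjusted p = 0.175). The part of these genes in the member results was not tested. Per the paper, FP-RMS is driven by fusions that join part of PAX3 or PAX7 to FOXO1. Whether reads of such a fusion add to the PAX3 values of Rh30 was not tested.

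The genes whose pattern was most like that of S100A10 were ranked by Pearson correlation on log2(FPKM + 1) over the 12 libraries, among the 11016 genes that averaged 10 FPKM or more. The points are libraries of 4 groups and share their group means. TGFBR2 and TIMP3 (r = 0.999) and RGS3, CLIC1 and PTRF (r = 0.998) came first, and ANXA1 was at rank 6 (r = 0.998). TGFBR2 had group means of 54.0 and 76.2 FPKM in RD Scramble and KDM3A-sh2 and 21.4 and 16.2 FPKM in Rh30. Of the other members S100A11 came next at rank 60 (r = 0.992), while ANXA5 (r = 0.587) and ANXA6 (r = -0.905) were least like S100A10. The correlation takes in the difference between the lines, so a high r is not a like response to KDM3A-sh2. S100A13 had r = 0.958 with log2 changes of 0.00096 in RD and 0.11 in Rh30. For S100A4 r was 0.97, with log2 changes of 1.15 and 0.49.

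All 6 S100 members lie within 151982915 to 153632039 of chromosome 1 (GRCh38), the interval from S100A10 to S100A1. The interval holds 85 genes, of which 79 are not members, and most of these did not reach the filter of 1 FPKM. Of 7 tested in RD, 3 rose (TCHH, S100A3 and S100A2) and none fell, with a median log2 change of 0.14, beside 21.6% higher, 19.5% lower and a median of 0.0067 over all genes. Of 4 tested in Rh30, 1 rose (HMGN3P1) and 1 fell (S100A2), with a median of 0.09, beside 15.3%, 13.2% and 0.03 over all genes. HMGN3P1 and AL591704.5, tested in both lines, are processed pseudogenes, and whether their reads come from other genes was not tested. S100A13, in the same interval, was not called in either line.

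Promoters were searched on both strands for the letters of 3 motifs in the 250 bases before to 50 bases after each RefSeq start site (GRCh38.p14), which gave 14 windows for the 10 members. The AP-1 letters TGACTCA were in 1 of the 14 (ANXA2) and in 4.95% of 35116 promoters, and the ETS letters CCGGAA in 1 of the 14 (S100A6) and in 17.2%. The TATA letters TATAAA were in 4 of the 14 and in 11.5% of all promoters. These 4 are shown since they include the members with the largest and the smallest RD change, S100A4 and S100A13, and each is read along the gene's strand with the motif in capitals:
S100A4: gcctggctggggTATAAAtaggtcagacct
S100A13: ttccccgctgctTATAAAcctcagccctga
ANXA1: cctttaaaatccTATAAAatcagaagccca
ANXA2: ggatgtggcgggTATAAAagccccacccag
They lie at chr1:153545820-153545849 (minus strand), chr1:153627517-153627546 (minus strand), chr9:73151822-73151851 (plus strand) and chr15:60398000-60398029 (minus strand). The motif starts at -29 in S100A13 and at -31 in the other 3, counted from the start site. A match of letters is a description of the sequence and not of a factor bound there.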

How the data were processed

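Polyadenylated RNA was sequenced with a directional mRNA preparation from 12 libraries, single-end, with reads of 151 bases in the sample labels and shorter ones in the published methods. Per the submitters' processing notes, the authors aligned reads with GSNAP to GRCh38, and used SAMtools and Cufflinks to deposit FPKM per gene. The annotation release and strand setting are not given in the sources used here. FPKM are not counts, so count models were not used and depth is known only as a relative value from the step between low values.

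The table lists 66095 entries for 65975 identifiers. Duplicate entries of 117 identifiers were reduced to the one that averaged higher. In 17 genes at least 1 library held 999999999, taken for a placeholder and set to missing, and a gene with such a value in a comparison was left out of it. GENCODE 29, which holds 86.3% of the identifiers, gave positions and transcripts, and RefSeq the promoters. Columns were assigned to samples by the labels. The labels call the knockdown KDM3A shRNA and the columns SUKD3, and the name KDM3A-sh2 is taken from the paper.

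Each line's KDM3A-sh2 libraries were compared with its Scramble libraries with limma 3.58.1 in R 4.3.3 (lmFit, eBayes with a trend, two-sided) on log2(FPKM + 1), keeping genes that averaged 1 FPKM or more across the libraries compared, with Benjamini-Hochberg adjustment over all genes tested and a threshold of 0.05. Log2 changes are on that scale, which understates the change of low genes. The difference between the lines was the interaction term over all 12 libraries. The study's own methods name ANOVA, which was run as an alternative. No exact permutation test of 3 against 3 libraries can go below p = 0.1, so none was used. The scripts were tested on simulated data. Descriptive work was done with pandas 2.3.3, NumPy 2.4.6 and matplotlib 3.10.9 (Python 3.11.15).

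The members and lists were chosen with earlier results of these data known. Besides the members, named genes were KDM3A, member pseudogenes at 1 FPKM or more, from each list the called genes among the 3 largest changes in a line, and the 5 genes most like S100A10. An item of a list is not reported here and was left out of that list's counts. The genes named in the chromosome 1 interval were added after their values were seen. The alternatives were a pseudocount of 0.1, no filter, a filter of 10 FPKM in 1 library, libraries rescaled to a common sum (TPM scale) or by median ratios, limma without a trend, ANOVA, summed duplicate entries, a replicate block, all 12 libraries in 1 fit, and leaving out each library.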

Additional observations from a re-analysis of the deposited data

Results flagged for a closer look

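For 7 of the 9 tested members the change with KDM3A-sh2 differed between Rh30 and RD by the interaction term, and all 7 were lower in Rh30. Over all 18517 genes 27.8% were called, 13.4% as lower. The members were chosen with earlier results of these data known, so this count is not independent of that choice. The differences of the log2 changes, Rh30 minus RD, were -0.66 for S100A4, -0.57 for S100A6, -0.45 for S100A11, -0.50 for S100A16, -1.19 for ANXA1, -0.57 for ANXA2 and -0.75 for ANXA5. For S100A10 the difference was -1.37; it was not tested, since the gene was picked on it, and its 3 knockdown libraries were all above the controls in RD and all below them in Rh30. With 3 libraries in each group, no group was searched for an outlying library.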

How the results depend on the processing

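Of 689 member values under the alternatives, 7 turned sign, 24 calls were lost, 3 were gained and 3 values of S100A10 moved beyond the spread. The number of Rh30 members called higher went from 0 to 1 with the filter of 10 FPKM (ANXA5), with all 12 libraries in 1 fit (S100A4) and without Rh30 KDM3A-sh2 replicate 3 (S100A13). Leaving out each library in turn gave 5984 to 6358 genes called in RD, with 6 to 8 members higher, 3215 to 4071 in Rh30 (3215 without Rh30 KDM3A-sh2 replicate 1), with 3 to 4 members lower and 0 to 1 higher, 4399 to 4757 for the difference, with 7 members lower, and 12913 to 13239 between the Scramble groups. Signs turned in RD for S100A13 (-0.0106 with median ratios, and -0.0153 to 0.033 over the fits without a library) and S100A11P2 (-0.0683 to 0.458 over those fits), in Rh30 for AGER (-0.0642 to 0.0916), CTSB (-0.0176 to 0.212) and ANXA2P3 (-0.18 to 0.069), and between the Scramble groups for ANXA5 (-0.0755 with a common sum, and -0.0131 to 0.0813 over the fits without a library). None of these was called. The causes were not tested. With a common sum S100A10 was at 0.71 in RD, -1.43 for the difference and -2.05 between the Scramble groups. With all 12 libraries in 1 fit the RD call of DLC1 was lost (adjusted p = 0.0575, range over 16 alternatives 0.00049 to 0.0575) and an Rh30 call gained (adjusted p = 0.0342, range over 15 alternatives 0.0342 to 0.285). The RD call of AGER was lost with ANOVA (adjusted p = 0.0831, range over 15 alternatives 0.0023 to 0.0831).

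Replicate numbers did not pair the libraries: same-numbered libraries had correlations of -0.0738 to 0.0476 in their deviations from the group means. With the replicate number as a block, 6259 genes were called in RD (7390 without), 3421 in Rh30 (5066 without), 3993 for the difference (5151 without) and 13544 between the Scramble groups (13683 without). Of the members, the block ended the RD call of ANXA6 (adjusted p = 0.0605, range over 16 alternatives 0.00609 to 0.0812). The Rh30 change of S100A4, at under 5 FPKM, had the largest SE of the members in that line (0.16).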
